A study of Mus musculus with 12 samples.

Results

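The complement system was examined through 9 of its genes, namely C1qa, C1qb, C1qc, C4b, C2, C3, Cfb, Serping1 and C3ar1. They were picked by gene symbol from the 34678 symbols of the deposited expression tables. All 9 had a mean of at least 0.1 FPKM (fragments scaled to gene length and library size), as did 15350 of the 34678 symbols, and all 9 therefore entered the tests.

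RNA was sequenced from 12 tumors of C57BL/6 mice that had been injected with LLC1-shLkb1 cells. This is a mouse Lewis lung carcinoma line in which a short hairpin RNA lowers Lkb1 (gene symbol Stk11). The study used mice of both sexes and injected cells under the skin or into the chest. The paper does not state the sex or the site for the 12 sequenced tumors. The mice were 5 to 8 weeks old, and treatment began 7 days after the injection. The 4 arms of 3 tumors each were vehicle with a control IgG, palbociclib (an inhibitor of the cyclin-dependent kinases CDK4 and CDK6; 100 mg/kg by mouth on 3 days of each 7-day cycle), anti-PD-1 antibody (200 µg per mouse into the peritoneum on 3 days of each cycle) and the combination of palbociclib with anti-PD-1. The paper describes tumor collection 2 weeks after treatment for lymphocyte isolation or tissue staining, and does not state a time for the sequenced tumors. Every arm carried the same knockdown line, so no tumor with intact Lkb1 stood beside them, and Stk11 lay between 7.90 and 11.5 FPKM in all 12 tumors.

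Complement is a cascade of plasma and tissue proteins that tags cells and particles for removal. In the classical pathway C1q, built from the products of C1qa, C1qb and C1qc, binds antibody or damaged surfaces, after which C4 and C2 are cleaved to form an enzyme that splits C3. Factor B (Cfb) forms the corresponding enzyme of the alternative pathway, C1 inhibitor (Serping1) blocks the proteases of the C1 complex, and C3ar1 is the receptor of the fragment C3a. Macrophages are the main source of C1q in most tissues, the liver supplies most of the C3, C4, C2 and factor B of plasma, and adipose tissue secretes factor D (Cfd, adipsin).

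The 9 genes lie in few places of the mouse genome (GENCODE M21 on GRCm38). C1qb (chr4:136880129-136886187), C1qc (chr4:136889804-136893065) and C1qa (chr4:136895917-136898803) are neighbours on the minus strand. Within the major histocompatibility region of chromosome 17, also on the minus strand, C4b (chr17:34728380-34743882), Cfb (chr17:34856374-34862518) and C2 (chr17:34862604-34898265) follow each other, while C3 lies elsewhere on that chromosome (chr17:57203970-57228136). Serping1 (chr2:84765387-84775444) and C3ar1 (chr6:122847138-122856161) stand alone, again on the minus strand. The read-through gene Gm20547 shares 79.5% of the exon bases of Cfb and 42.8% of those of C2, and Zbtb12 on the opposite strand overlaps 4.16% of C2. C4a, a near-identical copy of C4b, was listed at 0.101 to 0.323 FPKM, so how fragments were divided between these pairs is uncertain.

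RefSeq promoter windows (GRCm38.p6) were at hand for 4 of the 9 genes. They are shown because the C1q chains had nearly proportional levels in the tumors whereas C3 followed another pattern. Each line runs from 250 bases before the annotated start to 30 bases after it, 5′ to 3′ along the gene, and capitals mark matches to any of 5 motifs searched on both strands. The windows are chr4:136886171-136886450 for C1qb, chr4:136892885-136893164 for C1qc, chr17:57228107-57228386 for C3 and chr6:122856128-122856407 for C3ar1, all on the minus strand.
C1qb: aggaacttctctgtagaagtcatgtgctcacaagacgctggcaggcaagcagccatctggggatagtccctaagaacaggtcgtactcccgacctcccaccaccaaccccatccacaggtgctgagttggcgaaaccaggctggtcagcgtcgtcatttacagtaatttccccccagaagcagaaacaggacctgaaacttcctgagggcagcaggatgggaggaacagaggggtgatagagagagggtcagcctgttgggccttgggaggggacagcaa
C1qc: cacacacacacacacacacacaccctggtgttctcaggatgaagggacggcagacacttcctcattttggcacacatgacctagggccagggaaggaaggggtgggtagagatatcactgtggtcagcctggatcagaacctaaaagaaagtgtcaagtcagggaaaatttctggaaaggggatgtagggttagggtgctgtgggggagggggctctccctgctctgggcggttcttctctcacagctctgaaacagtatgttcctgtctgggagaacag
C3: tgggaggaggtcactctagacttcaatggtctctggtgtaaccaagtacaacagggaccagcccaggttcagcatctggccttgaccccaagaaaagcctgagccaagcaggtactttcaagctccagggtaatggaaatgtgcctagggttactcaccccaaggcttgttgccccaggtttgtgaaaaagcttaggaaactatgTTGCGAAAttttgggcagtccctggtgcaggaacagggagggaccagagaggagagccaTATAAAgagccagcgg
C3ar1: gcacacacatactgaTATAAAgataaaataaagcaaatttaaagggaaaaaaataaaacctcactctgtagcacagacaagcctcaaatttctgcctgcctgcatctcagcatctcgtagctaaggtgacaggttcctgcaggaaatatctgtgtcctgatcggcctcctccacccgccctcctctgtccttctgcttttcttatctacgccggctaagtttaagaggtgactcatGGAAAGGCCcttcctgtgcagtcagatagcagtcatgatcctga
The motifs were TTCNNNGAA (a STAT pattern, identical on both strands), GAANNGAAA (an interferon response pattern), TTGCNNAA (C/EBP), GGNNTTTCC (an NF-kB pattern) and TATAAA (a core promoter box). Of 32851 mouse promoter windows of the same length, 7.83% held TTCNNNGAA, 7.06% GAANNGAAA, 10.4% TTGCNNAA, 5.49% GGNNTTTCC and 13.1% TATAAA. The C3 window held TTGCNNAA and TATAAA, and the C3ar1 window held GGNNTTTCC (on the opposite strand) and TATAAA. The TATAAA match began 14 bases after the annotated start of C3 and 235 bases before that of C3ar1. No match overlapped another, and the windows of C1qb and C1qc held none of the 5. C1qa, C4b, C2, Cfb and Serping1 are named without a sequence. Any link between these matches and the levels in the tumors was not tested.

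The libraries held an estimated 14.9 to 20.3 M fragments, inferred from the steps between low FPKM values. From 17318 to 18499 genes had an FPKM above 0 in a tumor. At this depth a C1q chain rested on an estimated 500 fragments or more in every tumor, whereas Serping1, Cfb and C4b rested on as few as 54, 70 and 99. Genes typical of fat, skin or muscle were high in some tumors. The summed FPKM of 8 adipocyte genes was 133 in palbociclib tumor 1 and 330 in combination tumor 1, against 0.891 to 13.3 in the other 10, and that of 8 keratinocyte genes was 373 in palbociclib tumor 2 and at most 1.12 elsewhere. Genes of skeletal muscle summed to 57.9 in vehicle tumor 1, 173 in palbociclib tumor 3 and 159 in combination tumor 2, and to at most 11.9 in the other 9. Krt8, the most abundant of 4 epithelial markers, lay between 62.0 and 276 FPKM. Epcam, Krt18 and Krt19 had medians of only 0.162, 0.235 and 0.047 FPKM, each with a lowest value of 0. Hepatocyte markers were almost silent, with a summed level of 0.0961 to 1.43 FPKM over 8 genes and Ttr, Fga and Serpina1c listed at 0 in all 12 tumors.

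The chains of C1q, the initiator of the classical pathway, had the highest FPKM of the 9 genes. C1qa stood at 210, 122 and 25.6 FPKM in the 3 vehicle tumors and at 158, 268 and 307 FPKM in the 3 palbociclib tumors. It stood at 125, 31.0 and 32.6 FPKM in the anti-PD-1 tumors and at 303, 121 and 263 FPKM in the combination tumors. The lowest palbociclib value lay below the highest vehicle value, and the lowest combination value lay just below the highest anti-PD-1 value, so the arms overlapped in both comparisons. Averaged over both backgrounds, the palbociclib effect, which is the mean of palbociclib minus vehicle and combination minus anti-PD-1, was 1.76 ± 0.53 (SE) on the log2(FPKM + 0.1) scale, a 3.39-fold difference with a 95% interval of 1.52 to 7.55. All 6 palbociclib-treated tumors lay above the mean of their control arm. With limma and Benjamini-Hochberg adjustment over 15350 genes this did not pass (unadjusted p = 0.00641, adjusted p = 0.123).

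The other chains ran in parallel with C1qa. C1qb averaged 130 ± 91.9 FPKM (SD, n = 3) in the vehicle arm, 256 ± 77.6 in the palbociclib arm, 79.8 ± 64.1 in the anti-PD-1 arm and 235 ± 92.6 in the combination arm. C1qc, which encodes the remaining chain, averaged 60.2 ± 46.8, 110 ± 30, 31.7 ± 27.4 and 102 ± 39.5 FPKM in the same order. Their palbociclib effects were 1.52 ± 0.48 and 1.58 ± 0.50 on the log2 scale (limma, adjusted p = 0.132 and 0.133). While C1qa differed 12-fold between the lowest and the highest tumor, the ratio of C1qa to C1qb stayed between 0.716 and 0.994 and that of C1qc to C1qb between 0.348 and 0.496. The C1qa to C1qb ratio was lowest in anti-PD-1 tumor 3 and vehicle tumor 3, which were among the 3 tumors with the least C1q.

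C4b and C2 encode the substrates of the C1 complex, and they behaved differently. C4b stood at 11.3, 3.89 and 0.90 FPKM in vehicle tumors, 17.6, 7.57 and 21.8 in palbociclib tumors, 3.11, 1.06 and 1.04 in anti-PD-1 tumors, and 26.8, 6.29 and 8.49 in combination tumors. Every combination tumor thus exceeded every anti-PD-1 tumor, whereas vehicle tumor 1 exceeded palbociclib tumor 2. C4b had the largest palbociclib effect of the 9, at 2.41 ± 0.59 on the log2 scale, or 5.32-fold with a 95% interval of 2.17 to 13.1, and it was above its control arm mean in 6 of 6 treated tumors (limma, unadjusted p = 0.00175, adjusted p = 0.0882). C2 had the smallest spread. It stood at 2.14, 2.88 and 2.11 FPKM in vehicle tumors and 1.94, 2.13 and 2.32 in anti-PD-1 tumors, and at 4.98, 2.76 and 4.79 in palbociclib tumors and 4.58, 1.95 and 3.27 in combination tumors. The SD of its log2 values within arms was 0.402 against 0.657 to 1.19 for the other 8 genes. The palbociclib effect on C2 was 0.64 ± 0.21, or 1.55-fold with a 95% interval of 1.13 to 2.14 (limma, adjusted p = 0.143), and palbociclib tumor 2 and combination tumor 2 lay within the range of the arms without palbociclib.

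C3, the component on which all pathways converge, did not share the C1q pattern. C3 stood at 8.84, 6.60 and 35.9 FPKM in the vehicle arm, at 35.8, 12.6 and 20.5 in the palbociclib arm, at 11, 16.7 and 18.7 in the anti-PD-1 arm and at 81.8, 7.39 and 23.7 in the combination arm. Vehicle tumor 3, which was lowest for C1qa, C1qb, C1qc, C4b, Cfb and C3ar1, was the second highest of all 12 for C3. For C3 the palbociclib effect reached 0.70 ± 0.57 log2 units with a 95% interval of -0.56 to 1.96 (limma, adjusted p = 0.505), and only 4 of 6 treated tumors lay above their control arm mean. Without combination tumor 1 the effect was 0.26, without combination tumor 2 it was 1.12, and without both adipocyte-rich tumors it was 0.07.

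Cfb, the protease of the alternative C3 convertase, stood at 7.14, 2.76 and 1.40 FPKM with vehicle and at 14.4, 9.92 and 12.2 FPKM with palbociclib. These 2 arms did not overlap. With anti-PD-1 it stood at 7.34, 1.52 and 1.6 FPKM, and with the combination at 15.9, 4.72 and 10.9 FPKM, where combination tumor 2 lay below anti-PD-1 tumor 1. The palbociclib effect was 1.87 ± 0.48 on the log2 scale, or 3.66-fold with a 95% interval of 1.77 to 7.59, with 6 of 6 treated tumors above their control arm mean (limma, unadjusted p = 0.00238, adjusted p = 0.0929). Cfb and its neighbour C2 did not keep a fixed ratio. Cfb was 0.661 to 0.955 times C2 in vehicle tumors 2 and 3 and anti-PD-1 tumors 2 and 3, and 2.42 to 3.77 times C2 in the other 8 tumors. Gm20547, which shares their exons, lay between 0.589 and 1.28 FPKM in 8 of the 12 tumors and reached 10.9 FPKM in palbociclib tumor 3.

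Serping1, the inhibitor of the C1 proteases, stood at 5.20, 1.51 and 2.77 FPKM with vehicle and at 7.84, 4.35 and 12.4 FPKM with palbociclib. In anti-PD-1 tumors it stood at 4.48, 1.6 and 1.81 FPKM, and in combination tumors at 27.8, 4.09 and 2.22 FPKM. Its mean in the combination arm, 11.4 ± 14.2 FPKM (SD, n = 3), rested on combination tumor 1. The palbociclib effect was 1.39 ± 0.58 on the log2 scale (limma, unadjusted p = 0.0337, adjusted p = 0.211), and it was 0.87 without combination tumor 1. C3ar1, the C3a receptor, stood at 13.5, 7.58 and 5.22 FPKM with vehicle and at 21.4, 24.6 and 17.6 FPKM with palbociclib. Anti-PD-1 tumors had 21.5, 6.55 and 8.26 FPKM of it, and combination tumors 17.9, 8.91 and 20.1 FPKM. All palbociclib tumors exceeded all vehicle tumors, and anti-PD-1 tumor 1 exceeded all combination tumors. The palbociclib effect of C3ar1 was 0.92 ± 0.33, or 1.89-fold with a 95% interval of 1.15 to 3.12 (limma, adjusted p = 0.164).

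**Figure D1:**
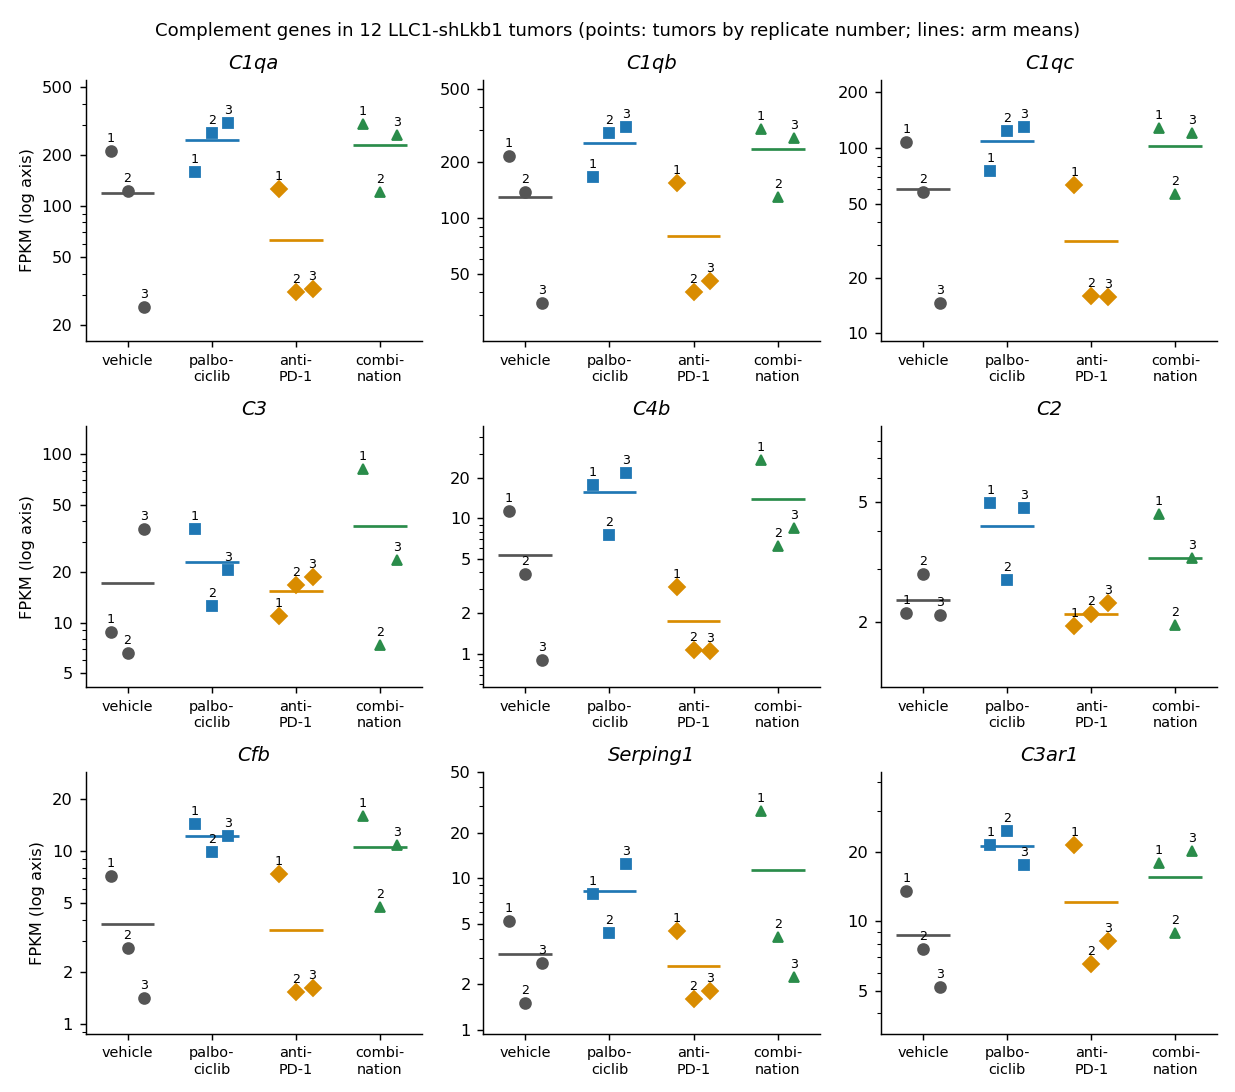
FPKM (log axis) of the 9 complement genes in each tumor, by treatment arm; points are tumors with their replicate number and lines are arm means (n = 3). C1qa, C1qb, C1qc, C4b and Cfb share a low vehicle tumor 3 and low anti-PD-1 tumors 2 and 3, while C3 is high in vehicle tumor 3 (35.9 FPKM) and highest in combination tumor 1 (81.8 FPKM).

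In the order of arm means, palbociclib came first for C1qa, C1qb, C1qc, C4b, C2, Cfb and C3ar1, and the combination came first for C3 and Serping1. The 2 palbociclib-containing arms differed in their means by less than the larger of their SDs for all 9 genes, and so did vehicle and anti-PD-1. Among all 12 tumors the mean levels per gene length ran from C1qb (175 FPKM) and C1qa (164 FPKM) over C1qc (76.0 FPKM), C3 (23.3 FPKM), C3ar1 (14.4 FPKM), C4b (9.16 FPKM), Cfb (7.49 FPKM) and Serping1 (6.34 FPKM) to C2 (2.99 FPKM).

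None of the 9 genes passed an adjusted p of 0.05 in any of the 7 contrasts fitted with limma. For the palbociclib effect 48 of 15350 genes passed, which is 0.313%. All 9 complement genes had a positive palbociclib effect, with a median of 1.52 on the log2 scale against 0.06 for all genes tested, and 8 of 9, all but C3, had an unadjusted p under 0.05 and a positive difference against 14.1% of all genes. The count of 8 became 5 of 9 without the 2 adipocyte-rich tumors (11.7% of all genes), 3 of 9 without the tumors numbered 1 and 2 of both palbociclib-containing arms (6.85% of all genes) and 7 of 9 without the 3 muscle-rich tumors (14.7% of all genes). All 9 differences stayed positive in each of these fits, and the median of the 9 was 1.54, 1.83 and 1.90. The 6 genes C1qa, C1qb, C1qc, C4b, Cfb and C3ar1 passed the adjusted threshold without anti-PD-1 tumor 1, and C1qa, C4b and Cfb passed it without vehicle tumor 1, with adjusted p-values of 0.0283 to 0.0486 in limma. In these fits 4.94% and 4.51% of all genes passed, against 0.313% with all 12 tumors. Over all refits the adjusted p of C4b ran from 0.0283 to 0.468 and that of Cfb from 0.0308 to 0.50.

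Taken without anti-PD-1, palbociclib tumors compared with vehicle tumors had positive differences for all 9 genes, from 0.71 (C3) to 2.01 (C4b) on the log2 scale with a median of 1.36 against 0.07 for all genes, and 0.143% of all genes passed the adjusted threshold. At an unadjusted p under 0.05, 4 of 9 (C4b, C2, Cfb and C3ar1) were higher against 9.43% of all genes. That count was 0 of 9 without vehicle tumor 3 (6.34% of all genes), 2 of 9 without palbociclib tumor 1 or 3 (9.11% and 6.55%) and 6 of 9 without vehicle tumor 1 (14.8%). It was 2 of 9 without the adipocyte-rich tumors (8.57%) and without the 4 tumors numbered 1 and 2 of the palbociclib-containing arms (5.22%). The C4b difference was 1.09 on the log2 scale without vehicle tumor 3, against 2.01 with it. Both Cfb and C3ar1 had no overlap between these arms, which 12.9% of all genes shared in that direction. On the background of anti-PD-1, the combination had positive differences for all 9, from 0.48 (C3ar1) to 2.82 (C4b) with a median of 1.75 against 0.05 for all genes. There 0.00651% of all genes passed the adjusted threshold, and 5 of 9 (C1qa, C1qb, C1qc, C4b and Cfb) were higher at an unadjusted p under 0.05 against 7.61% of all genes. That count was 1 of 9 without anti-PD-1 tumor 2 (5.95% of all genes), anti-PD-1 tumor 3 (4.64%) or combination tumor 1 (4.68%), and 3 of 9 without combination tumor 3 (5.97%). It was 1 of 9 without the adipocyte-rich tumors (4.49%) and 0 of 9 without the 4 tumors numbered 1 and 2 (2.89%). Only C4b among the 9 had no overlap between combination and anti-PD-1 tumors, as had 11.4% of all genes. No complement gene of the 9 separated both pairs of arms, whereas 1.95% of all genes did.

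The combination compared with vehicle gave positive differences for all 9, with a median of 1.12. In that contrast 0.013% of all genes passed the adjusted threshold, and 1 of 9 (Cfb, 1.59 on the log2 scale) was higher at an unadjusted p under 0.05 against 8.64% of all genes. That count was 6 of 9 without vehicle tumor 1 (14.1% of all genes), 5 of 9 without combination tumor 2 (8.16%) and 2 of 9 without anti-PD-1 tumor 1 (10.5%). It was 0 of 9 without vehicle tumor 2 (4.74%), vehicle tumor 3 (6.4%), palbociclib tumor 2 (7.61%) or combination tumor 1 (6.38%), and also without the adipocyte-rich tumors (5.85%) or the 4 tumors numbered 1 and 2 (2.75%). The median of the 9 was 0.54 without vehicle tumor 3. Anti-PD-1 compared with vehicle gave 7 negative and 2 positive differences with a median of -0.24 against -0.03 for all genes, and neither the 9 genes nor any of the 15350 passed (0% called by limma, with 1289 genes at an unadjusted p under 0.05, none of them among the 9). The log2 difference of C1qa was -0.79 with a 95% interval of -2.42 to 0.84, and that of C4b was -1.14 with an interval of -2.98 to 0.69, and both intervals included 0. Without vehicle tumor 1 these differences were -0.15 and -0.30, and without vehicle tumor 3 they were -1.67 and -2.06. The combination compared with palbociclib alone gave 8 negative and 1 positive difference with a median of -0.24, and 0.00651% of all genes passed. The 9 genes held none of the 694 genes at an unadjusted p under 0.05 there.

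Whether anti-PD-1 altered the palbociclib difference was addressed by the interaction, the combination minus anti-PD-1 difference less the palbociclib minus vehicle difference. Its median over the 9 genes was 0.00 on the log2 scale, and no gene passed (0% of 15350 by limma, with 879 at an unadjusted p under 0.05 and none of the 9 among them). The interval was wide, from -1.66 to 2.96 for C1qa, from -1.78 to 3.40 for C4b and from -2.32 to 0.55 for C3ar1. Interferon-responsive genes, a list of 16, gave other values in the same contrasts. Their median was 1.63 for palbociclib against vehicle and 0.29 for the combination against anti-PD-1. The interaction was negative at an unadjusted p under 0.05 for 9 of 16, against 3.34% of all genes. In the palbociclib effect all 16 were positive, and those past the adjusted threshold included Gbp2 and Gbp3 (limma, adjusted p = 0.0462 and 0.0339). The difference between the interferon and the complement genes was not tested.

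Of 52 other complement genes, 27 passed the minimum of 0.1 FPKM, and none passed the adjusted threshold in any contrast. In the palbociclib effect 23 of the 27 were positive, with 10 at an unadjusted p under 0.05, all of them positive, against 14.1% of all genes. Their median was 0.41 on the log2 scale against 0.06 for all genes. Factor D (Cfd), the protease that activates factor B, had the highest value, 6.96 ± 1.62 on the log2 scale (limma, unadjusted p = 0.00123, adjusted p = 0.0836). Cfd was listed at 0 to 0.420 FPKM with vehicle, at 280, 10.2 and 24.7 FPKM with palbociclib, at 0 to 0.509 FPKM with anti-PD-1 and at 668, 10.6 and 0.134 FPKM with the combination. The tumors highest in Cfd were those highest in adipocyte genes, and Adipoq (adiponectin) stood at 34.6 FPKM in palbociclib tumor 1 and 102 FPKM in combination tumor 1. The part of adipose tissue in the Cfd difference was not tested. Properdin (Cfp), which stabilises the alternative convertase, had an effect of 1.08 ± 0.33 with an adjusted p of 0.128 in limma.

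Next after Cfd came C6, a pore-forming component, at 1.49 ± 0.56, and Fcna, a ficolin that recognises sugars in the lectin pathway, at 1.39 ± 0.47 (limma, adjusted p = 0.182 and 0.152). C6 stayed at or under 1.17 FPKM in every tumor, whereas Fcna had medians of 9.14, 13.1, 3.10 and 15.0 FPKM in the vehicle, palbociclib, anti-PD-1 and combination arms. At the low end were the membrane regulator Cd46 at -0.72 ± 0.42, C1qbp at -0.15 ± 0.09 and C4a at -0.13 ± 0.18 (limma, adjusted p = 0.346, 0.368 and 0.703). The 7 tested regulators had a median effect of 0.09 with none at an unadjusted p under 0.05. The 5 tested genes listed with the classical pathway besides the 9, C1qbp among them, had a median of 0.11 with 1 (C1ra). The 7 tested receptors had a median of 0.57, with C5ar1, C5ar2, Itgb2 and Vsig4 higher at an unadjusted p under 0.05, against 14.1% of all genes. Of the 25 genes below the minimum, 8 were listed at 0 throughout and the highest single value was 0.484 FPKM (C7).

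**Figure D2:**
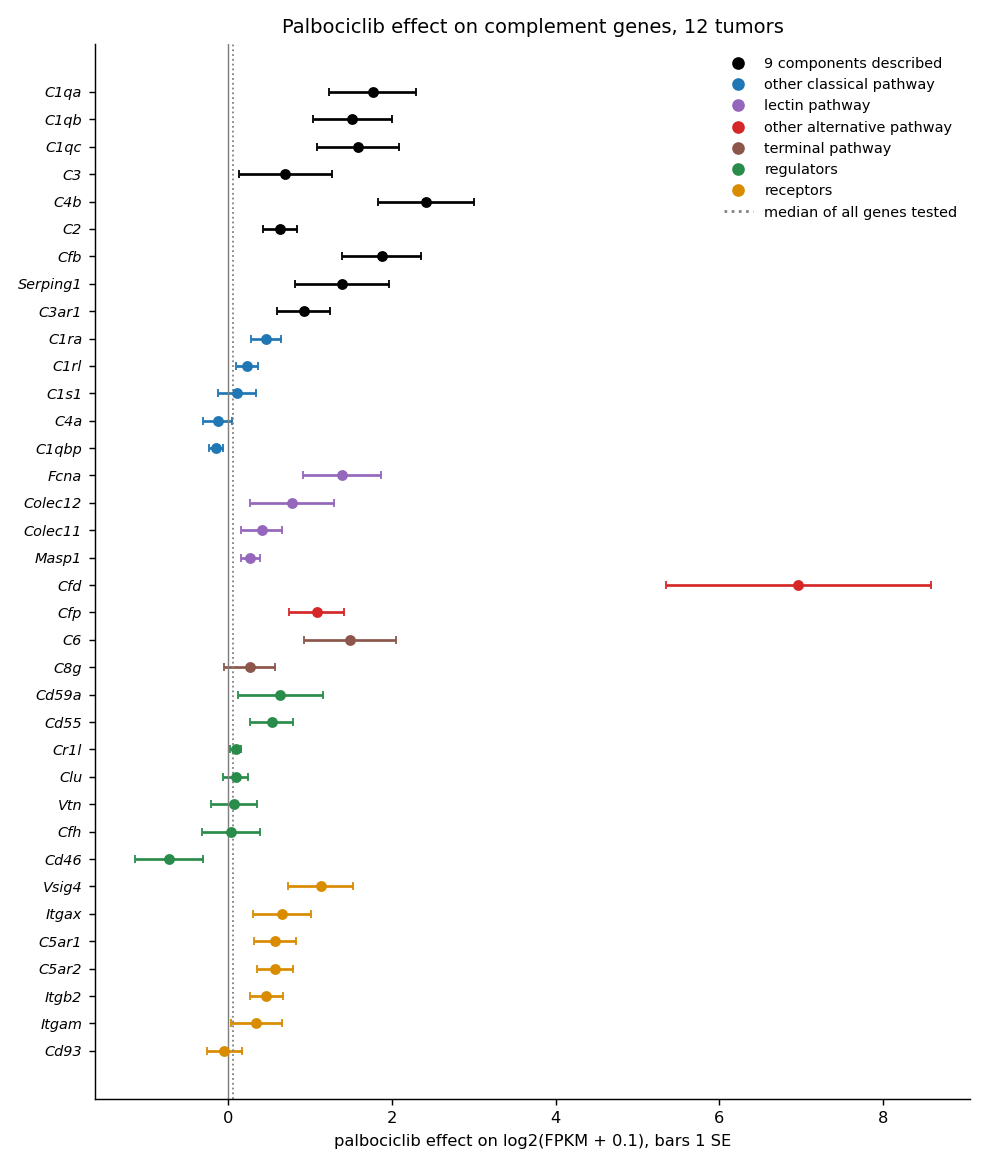
Palbociclib effect on log2(FPKM + 0.1) for the 9 complement genes and 27 further complement genes in 12 tumors; points are limma estimates, bars are 1 SE, and the dotted line is the median of all 15350 genes. The 9 genes lie between 0.64 (C2) and 2.41 (C4b), most regulators lie near 0, and Cfd stands apart at 6.96 with an SE of 1.62.

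Over the 12 tumors the 9 genes fell along more than 1 pattern. C1qa and C1qb had a Pearson r of 0.999 (Spearman rho of 1), and the 3 C1q chains kept an r of at least 0.996 after the arm means were removed. Cfb and C4b followed them, with r of 0.929 and 0.925 to C1qa over all tumors and 0.880 and 0.834 within arms. C3ar1 and Cfb had an r of 0.918, and 0.932 within arms. C3 had an r of 0.03 to C1qa (rho 0.189) and -0.30 within arms, and its closest member was C2 with an r of 0.599 (rho 0.469) and 0.625 within arms. Serping1 lay between, with an r of 0.632 to C1qa, 0.797 to C4b and 0.545 to C3. These correlations describe 12 tumors that share 4 arms and differ in tissue content, and no test was attached to them.

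**Figure D3:**
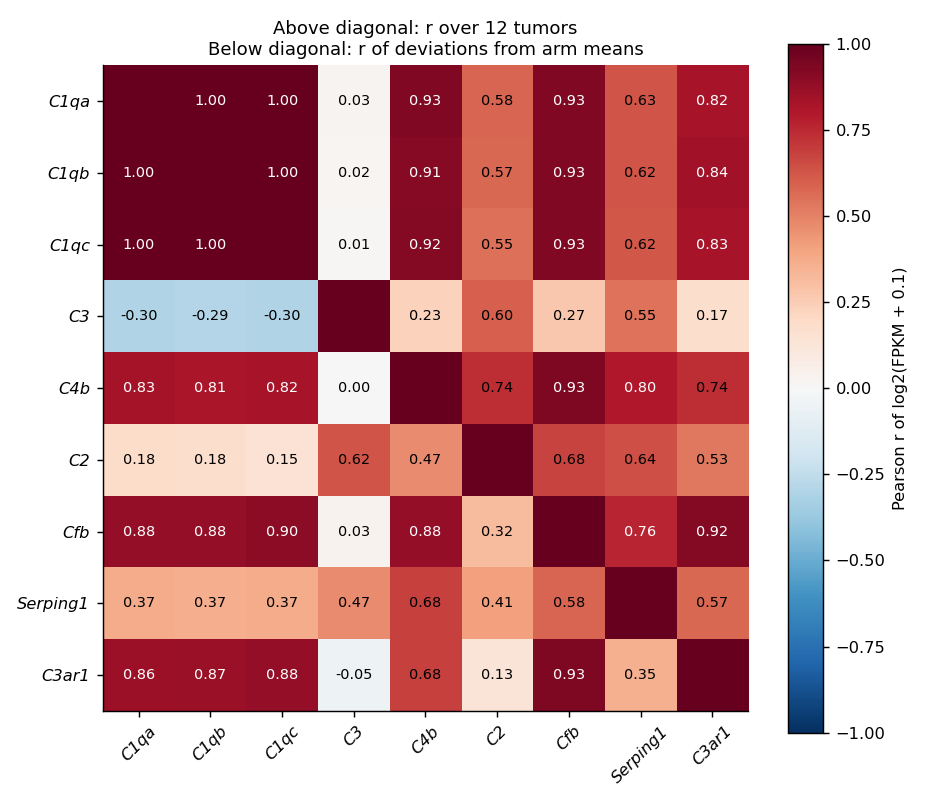
Pearson r of log2(FPKM + 0.1) between the 9 complement genes, over 12 tumors above the diagonal and of the deviations from arm means below it. The C1q chains, C4b, Cfb and C3ar1 form a block of high values. C3 has an r of 0.03 to C1qa above the diagonal and -0.30 below it. Above the diagonal its r is 0.599 to C2 and 0.545 to Serping1.

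Genes outside the 9 with the most similar profiles were taken from 11178 genes with a mean of at least 1 FPKM. For the mean of the C1q chains they were Pld4, Lrmp, Ucp2, Ly86 and Slamf9, with r from 0.980 to 0.990 over 12 tumors and from 0.965 to 0.985 within arms. Cfb was closest to Rassf4, Ly86, Anxa6, Folr2 and Tcn2 (r from 0.964 to 0.968), so that Ly86 appeared for both. C3ar1 was closest to Bcl2a1b, Tlr9, Metrnl, Btk and Trpv2 (r from 0.965 to 0.975), and those close to C4b included Fcgrt, Chp2, Trf and Cd302 (r from 0.933 to 0.946). The C3 list was a different one, with Lrg1, Pygl, Steap4, Dgat2 and Mcm8 at r from 0.822 to 0.90, of which Lrg1 reached 0.957 within arms. Serping1 was closest to Efemp1, Ccdc80, Cygb, Clec3b and Ppap2b (r from 0.924 to 0.965), and those close to C2 included 1600014C10Rik, Mul1, Npc2 and Nkg7 (r from 0.869 to 0.907).

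Macrophage markers moved with most of these genes. The mean log2 level of 9 macrophage genes had an r of 0.906 to C1qa, 0.921 to Cfb, 0.948 to C3ar1, 0.797 to C4b, 0.580 to Serping1, 0.486 to C2 and 0.115 to C3 over the 12 tumors. Within arms the values were 0.893 for C1qa, 0.984 for C3ar1, 0.112 for C2 and -0.08 for C3. The summed macrophage level ran from 110 to 196 FPKM in vehicle tumors, 180 to 256 in palbociclib tumors, 94.0 to 213 in anti-PD-1 tumors and 110 to 213 in combination tumors, and none of the 9 markers was at 0 in any tumor. Of these markers 8 of 9 had a positive palbociclib effect with a median of 0.51, and none passed the adjusted threshold. At an unadjusted p under 0.05, 3 were higher and 1 was lower, against 14.1% and 6.44% of all genes. C1qa was 5.49 to 14.8 times the level of Csf1r, the receptor that macrophages need to survive, a 2.70-fold range beside the 12-fold range of C1qa itself. That ratio was 9.21, 12 and 6.56 in vehicle tumors, 9.98, 9.05 and 14.8 in palbociclib tumors, 7.17, 6.14 and 5.49 in anti-PD-1 tumors and 12.3, 11.5 and 12.1 in combination tumors. In this ratio all 3 combination tumors lay above all 3 anti-PD-1 tumors, and palbociclib and vehicle tumors overlapped. By FPKM, 11.4% of all genes separated combination from anti-PD-1 tumors in that direction, and no such share was computed for ratios. In bulk RNA, more cells of a type and more RNA per cell cannot be told apart.

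Neutrophil markers ran the other way. All 6 had a negative palbociclib effect with a median of -1.66, and none passed the adjusted threshold. At an unadjusted p under 0.05, 4 of 6 were lower, against 6.44% of all genes. Vehicle tumor 3 and anti-PD-1 tumors 2 and 3, the tumors with the least C1q, had summed levels of 539, 276 and 245 FPKM over 6 neutrophil genes, against 14.2 to 88.8 FPKM in the other 9 tumors. The r of the neutrophil mean to C1qa was -0.91, and -0.84 within arms, whereas to C3 it was 0.07 and 0.36. The 6 T cell genes all had a positive palbociclib effect, with a median of 1.43. All 6 had an unadjusted p under 0.05, against 14.1% of all genes in that direction, and none passed the adjusted threshold. Their mean had an r of 0.744 to C1qa and 0.847 to Cfb, and of 0.489 and 0.646 within arms. Dendritic cell markers had an r of 0.858 to C1qa and 0.887 to Cfb (0.809 and 0.853 within arms). Endothelial markers had one of -0.53 to C1qa and 0.380 to C3 (-0.23 and 0.666 within arms). The interferon genes followed Cfb (r of 0.836, and 0.664 within arms) and C3ar1 (0.796 and 0.577) and were least similar to C3 (0.371 and 0.257). The part of these cell types and of the interferon response in the complement values was not tested.

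Adipocyte markers moved most closely with Serping1. Their mean log2 level had an r of 0.848 to Serping1, 0.747 to C2, 0.688 to C4b, 0.671 to C3, 0.648 to Cfb and 0.457 to C1qa. Within arms these values were 0.759, 0.573, 0.437, 0.641, 0.312 and 0.02. By rank the order differed, with a Spearman rho of 0.860 for Serping1, 0.629 for Cfb and 0.573 for C4b. The rho of C2 (0.315) and C3 (0.378) lay below that of C1qa (0.483). Of 8 adipocyte genes 3 were listed at 0 in every vehicle tumor and 3 in every anti-PD-1 tumor, while none was at 0 throughout the palbociclib or the combination arm. Vehicle tumor 3 had 35.9 FPKM of C3 at an adipocyte sum of 4.58 FPKM, the highest sum of the vehicle arm. Fabp4 made up 4.40 FPKM of that sum, and Adipoq, Plin1, Plin4, Cidec and Lep were listed at 0 in this tumor. Without palbociclib tumor 1 and combination tumor 1, the palbociclib effect was 1.78 on C1qa, 2.03 on C4b and 1.62 on Cfb, against 1.76, 2.41 and 1.87 over 12 tumors. It was 0.85 on Serping1 and 0.42 on C2, against 1.39 and 0.64. Fibroblast markers had an r of 0.767 to Serping1 (0.831 within arms) and 0.657 to C4b (0.703 within arms), and summed to 313 to 651 FPKM in palbociclib tumors and 353 to 541 FPKM in vehicle tumors. Hepatocyte markers had an r of 0.857 to Serping1 and 0.840 to C2, at summed levels of no more than 1.43 FPKM. The part of adipose tissue, fibroblasts and hepatocyte transcripts in these differences was not tested.

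**Figure D4:**
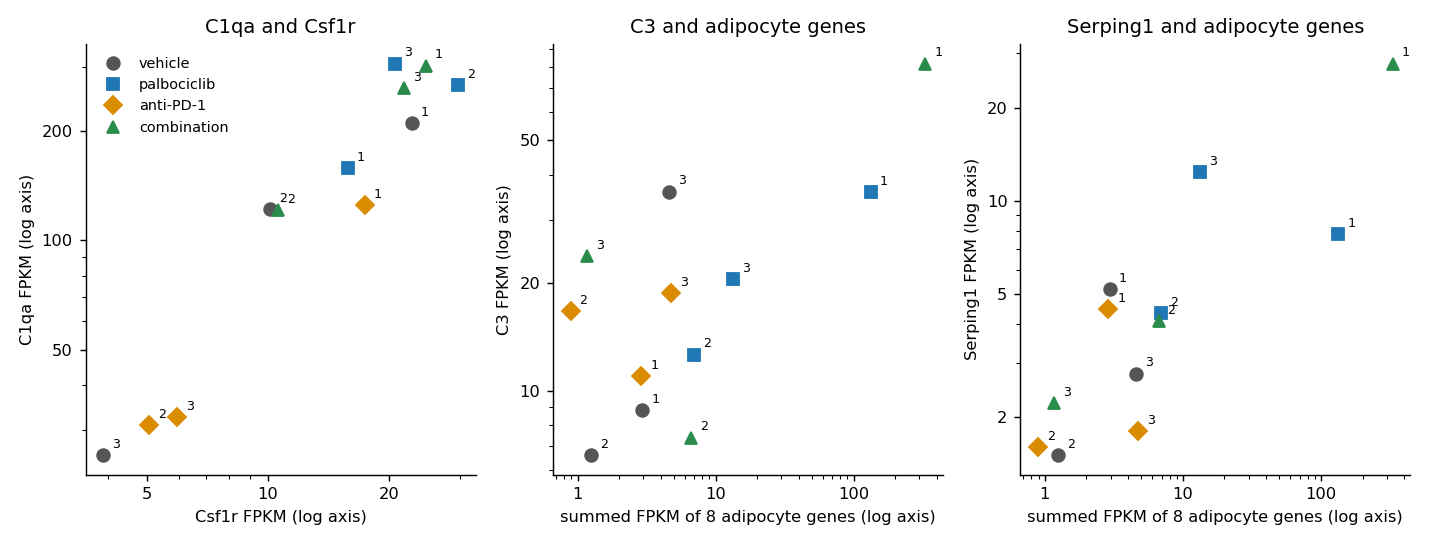
Left, C1qa FPKM against Csf1r FPKM; middle and right, C3 and Serping1 FPKM against the summed FPKM of 8 adipocyte genes, all on log axes, with 1 point per tumor, its replicate number beside it and colour by arm. C1qa follows Csf1r across all arms, C3 and Serping1 are highest in combination tumor 1 with an adipocyte sum of 330 FPKM, and vehicle tumor 3 has 35.9 FPKM of C3 at an adipocyte sum of 4.58 FPKM.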

How the data were processed

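Bulk RNA-sequencing of 12 tumors, 3 per arm, was examined. For each tumor the authors deposited FPKM for 34745 entries. Where symbols recurred (67 entries), the one highest on average stayed. The submitters' processing notes name HISAT2 and GRCm38 (mm10), and the counting tool and annotation are not given in the sources used here. Without counts, depth was estimated from the smallest FPKM steps of 3624 genes, with 37.1% of them sharing 1 value, and fragment numbers are therefore approximate.

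Genes with a mean of at least 0.1 FPKM were tested on log2(FPKM + 0.1), which understates differences of low genes, using a linear model with 1 mean per arm (limma 3.58.1, R 4.3.3, moderated by eBayes with a trend) and no covariates. P-values were adjusted by the Benjamini-Hochberg method over all 15350 genes, with a threshold of 0.05. The fit was tested on simulated data. Intervals are limma's 95% intervals. The labels do not say how tumors were assigned to mice or runs, so p-values measure the spread between these tumors. The 9 genes, the marker lists and the other complement genes were chosen with earlier results of these data known. All 9 genes were named, as were the 3 highest and 3 lowest palbociclib effects among other complement genes and the 5 genes most similar to each profile, some of which are not reported here. Cfp, C1ra, C7, the 4 receptors and Adipoq were named after their values were seen. Alternatives covered pseudocounts (0.01 and 1), filters, TPM, quantile normalization, eBayes without a trend, a replicate block, only the arms compared and tumors left out. The adipocyte-rich tumors and the 4 tumors numbered 1 and 2 of the palbociclib-containing arms were picked with earlier results of these data known. The muscle-rich tumors were chosen after seeing the data. Promoter windows came from RefSeq (GRCm38.p6). Summaries used Python 3.11.15, numpy 2.4.6, pandas 2.3.3, scipy 1.17.1 and matplotlib 3.10.9.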

Additional observations from a re-analysis of the deposited data

How the results depend on the processing

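The palbociclib effect of each of the 9 genes kept its positive direction under every alternative run. Of 1440 refitted values over 63 gene differences, 1377 kept direction and side of the threshold, 52 reversed and 11 passed the threshold. None of the 63 differences passed it in the fit described above, so none could be lost.

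The replicate block called 2 of the 9 genes in the palbociclib effect (C4b and Cfb, adjusted p = 0.0412 and 0.0351 in limma). Same-numbered pairs of tumors had correlations from -0.213 to 0.453 with a median of 0.0277, and 7 of 18 were over 0.1. Different-numbered pairs ran from -0.353 to 0.309 with a median of -0.0131, and 9 of 36 were over 0.1. Of the 12 tumors, 5 correlated best with their own number. These values do not settle whether the numbers pair the tumors. Over all genes the block called 129 for the palbociclib effect, 51 for palbociclib against vehicle and 1 for the combination against vehicle.

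Against 48 genes in the palbociclib effect, 11 were called with no filter, 0 by eBayes without a trend, 0 without the adipocyte-rich tumors, 12 without the tumors numbered 1 and 2 of the palbociclib and combination arms, and 154 without the muscle-rich tumors. Against 22 for palbociclib versus vehicle, TPM gave 34, quantile normalization 1, eBayes without a trend 6, the 2 arms alone 0, and the fit without adipocyte-rich tumors 4. No filter gave 1 for anti-PD-1 versus vehicle. For the combination against vehicle, a pseudocount of 0.01 gave 5, eBayes without a trend 1, the 2 arms alone 0 and the fit without adipocyte-rich tumors 0. Against anti-PD-1 it gave 2 with no filter, 0 with 2 arms alone, 0 without adipocyte-rich tumors and 3 without the 4 numbered tumors, and against palbociclib 2 at a mean FPKM of at least 1, 5 with no filter, 2 with TPM, 0 with 2 arms alone, 3 without adipocyte-rich tumors and 9 without the 4 numbered tumors. The interaction gave 1 with a pseudocount of 0.01, 2 at a mean of at least 1, 7 with no filter, 1 with TPM, 2 with quantile normalization and 7 without the 4 numbered tumors. The cause was not tested.

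Reversed differences, on the log2 scale, were those of C3 without the adipocyte-rich tumors (combination against anti-PD-1, -0.18, and against palbociclib, -0.28), of Serping1 without the 4 numbered tumors (combination against vehicle, -0.32, and against anti-PD-1, -0.083) and of C3ar1 for the combination against palbociclib, also without the 4 numbered tumors (0.18). In the interaction they were C3 with a pseudocount of 1 (0.025), C1qb without the adipocyte-rich tumors (-0.042), and C4b and Cfb without the 4 numbered tumors (-0.21 and 0.037). Serping1, at 0.00, gave -0.00090 with a pseudocount of 0.01, -0.023 with TPM, -0.011 with quantile normalization, -1.02 without adipocyte-rich tumors and -2.20 without the 4 numbered tumors.

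Leaving out each tumor in turn called 0 to 6 of the 9 genes in the palbociclib effect. Over all genes it called 0 to 758 for the palbociclib effect, 1 to 46 for palbociclib and 0 to 1 for anti-PD-1 against vehicle, 0 to 5 and 0 to 6 for the combination against vehicle and anti-PD-1, 1 to 4 against palbociclib, and 0 to 3 for the interaction. Anti-PD-1 against vehicle then ran from -1.67 to -0.15 for C1qa, -1.41 to -0.08 for C1qb, -1.65 to -0.21 for C1qc, -2.06 to -0.30 for C4b, -0.24 to 0.97 for C3, -0.92 to 0.40 for Cfb, -0.69 to 0.19 for Serping1 and -0.14 to 0.73 for C3ar1, and the combination against anti-PD-1 from -0.18 to 1.54 for C3. The combination against palbociclib ran from -0.43 to 0.26 for C1qa, -0.44 to 0.22 for C1qb, -0.40 to 0.22 for C1qc, -0.66 to 1.06 for C3, -0.96 to 0.080 for C4b, -0.74 to 0.13 for Cfb and -1.29 to 0.50 for Serping1. The interaction ran from -0.079 to 1.25 for C1qb, -0.89 to 0.83 for C3, -0.032 to 1.73 for C4b, -0.52 to 0.079 for C2, -0.76 to 0.56 for Cfb and -1.05 to 0.74 for Serping1. Estimated fragments were fewest for Serping1, Cfb and C4b, whose low values are the least precise.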
